A study of Mus musculus with 30 samples.

Results

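Cytochrome P450 enzymes of families 1 to 4 were followed in the colon of 30 mice by total RNA sequencing. The genes were chosen by their names, which had to carry a family number from 1 to 4, a subfamily letter and a gene number, and by a measured value, a mean of at least 5 raw counts per gene over the 30 libraries. Such names were carried by 75 of the 46078 genes counted, and 32 of these reached the minimum, in 15 subfamilies. The mice were C57BL/6J, aged 5 to 6 weeks at the start, and the females kept their ovaries. Each group held 6 animals: females and males on control diet (CD F, CD M; 10% of energy from fat), females and males on high-fat diet (HFD F, HFD M; 60% of energy from fat), and HFD males given estrogen (HFD+E2 M; the hormone is written E2). Diets were given for 13 weeks, and in the last 3 weeks each mouse received 9 intraperitoneal injections, of vehicle in the first 4 groups and of E2 at 0.5 mg per kg body weight in the fifth. There was no E2 group in females or on CD, so the effect of E2 was measured in HFD males only.

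P450 enzymes are membrane-bound, haem-containing monooxygenases that take electrons from P450 oxidoreductase and insert an oxygen atom into their substrate. Members of families 1 to 3 oxidise drugs, plant compounds, steroids and polyunsaturated fatty acids, and several are switched on by the receptors AHR, PXR and CAR. Members of family 4 mainly hydroxylate the end of fatty acid chains, including leukotrienes. The liver holds most of the body's P450 protein, and the intestinal epithelium carries a set of its own that meets dietary compounds first.

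The libraries held between 8667177 and 17243712 counts assigned to genes (median 11530915). Levels are given as TPM, a share of all transcripts that is scaled for transcript length and can be compared between genes; differences between groups were tested on the raw counts. The tissue was frozen colon wall, so fewer cells of a type and less RNA per cell cannot be told apart. Of 15 surface colonocyte markers 14 reached a mean of 1 TPM, with a summed level of 3170 to 5347 TPM over all libraries, and of 8 hepatocyte markers 6, among them Alb, had a mean count below 5. The 10 markers of smooth muscle summed to 2635 to 4089 TPM in CD F and 4147 to 6888 TPM in CD M, and 6 of them fell in CD F at the adjusted threshold explained below. Summed levels of adipocyte markers (9.40 to 45.04 TPM over all libraries), small intestinal enterocyte markers (55.4 to 115.4 TPM) and markers of distal colon position (171.7 to 276.4 TPM) overlapped in all groups, and no gene of these 3 lists passed the adjusted threshold. Markers of squamous epithelium, which lines the anal canal, summed to more than 100 TPM in 6 libraries, HFD F replicates 1, 3, 4 and 5 and HFD M replicates 2 and 4, and to at most 16.5 TPM in the other 24. Differences past a threshold that involve HFD are therefore given with and without these 6 libraries, which leaves 2 HFD females and 4 HFD males.

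Many of the genes lie in tandem arrays. The 6 members of subfamily 2d span 423.7 kb of chromosome 15, 6 of the 7 members of subfamily 4f span 478.9 kb of chromosome 17, and 5 of the 6 members of subfamily 2c span 879.8 kb of chromosome 19, with Cyp2c44 another 4118 kb away (GRCm38). Promoter windows, from 250 bases before to 50 after a transcription start, were found for 25 of the 32 genes in RefSeq (GRCm38.p6), 29 windows in all. Those of Cyp4f40, Cyp2c68 and Cyp2c69 are shown because Cyp4f40 was the one gene past the adjusted threshold, and because the last 2 are copies in the same array that were both higher in HFD males. Capitals mark the core of the xenobiotic response element bound by AHR (GCGTG), the E-box (CACGTG), the nuclear receptor half-site (AGGTCA) and TATAAA, each searched on both strands.
Cyp4f40, plus strand, chr17:32658636-32658935, the first of its 2 RefSeq starts: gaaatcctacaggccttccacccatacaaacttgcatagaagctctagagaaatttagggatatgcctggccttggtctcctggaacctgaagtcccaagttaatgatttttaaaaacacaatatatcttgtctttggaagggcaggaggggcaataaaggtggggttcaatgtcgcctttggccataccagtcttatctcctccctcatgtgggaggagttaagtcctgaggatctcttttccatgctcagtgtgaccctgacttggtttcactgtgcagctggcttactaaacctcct
Cyp2c68, minus strand, chr19:39741052-39741351: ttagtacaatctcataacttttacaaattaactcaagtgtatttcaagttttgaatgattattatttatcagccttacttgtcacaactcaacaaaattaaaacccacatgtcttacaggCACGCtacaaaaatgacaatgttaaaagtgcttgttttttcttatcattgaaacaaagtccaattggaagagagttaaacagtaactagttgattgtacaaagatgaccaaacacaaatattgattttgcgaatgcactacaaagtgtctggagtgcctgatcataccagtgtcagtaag
Cyp2c69, minus strand, chr19:39886720-39887019: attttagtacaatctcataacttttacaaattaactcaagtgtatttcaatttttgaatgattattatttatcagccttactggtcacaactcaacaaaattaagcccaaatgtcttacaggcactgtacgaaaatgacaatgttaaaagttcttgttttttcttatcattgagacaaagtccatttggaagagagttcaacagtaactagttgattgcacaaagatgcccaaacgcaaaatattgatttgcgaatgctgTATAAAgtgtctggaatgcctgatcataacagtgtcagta
The windows of Cyp2c68 and Cyp2c69 were 93.6% identical over 296 aligned bases. Cyp2c68 held 1 GCGTG core, read on the opposite strand as CACGC, and Cyp2c69 held 1 TATAAA. The Cyp4f40 window held none of the 4 motifs, and the deposited table starts this gene at position 32659410, downstream of both RefSeq windows. Among the 29 windows 9 held GCGTG (31.0%, against 32.4% of 32851 windows of all genes), 2 held CACGTG (6.90% against 7.15%), 1 held AGGTCA (3.45% against 16.3%) and 8 held TATAAA (27.6% against 13.6%). These matches are letters in a window and describe no binding.

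A small number of genes carried most of the P450 transcript in the colon. Averaged over the 30 mice, Cyp2d34 was the most abundant at 110.7 TPM, followed by Cyp2c68 (76.9 TPM), Cyp2s1 (75.3 TPM) and Cyp3a13 (52.0 TPM), and these 4 together made up 55.7% of the summed level. The 10 most abundant genes made up 82.4%. The other 6 of them were Cyp2c55 (40.9 TPM), Cyp2d10 (27.3 TPM), Cyp2d12 (26.9 TPM), Cyp4f13 (21.3 TPM), Cyp4f16 (17.5 TPM) and Cyp4f14 (17.0 TPM). The summed level of the 32 genes was 530.2 ± 75.6 TPM (SD, n = 6) in CD F, 530.0 ± 53.4 in CD M, 577.3 ± 64.8 in HFD F, 600.1 ± 58.2 in HFD M and 589.9 ± 102.6 in HFD+E2 M. Single mice ranged from 391.5 to 731.2 TPM, and the ranges of all 5 groups overlapped.

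**Figure D1:**
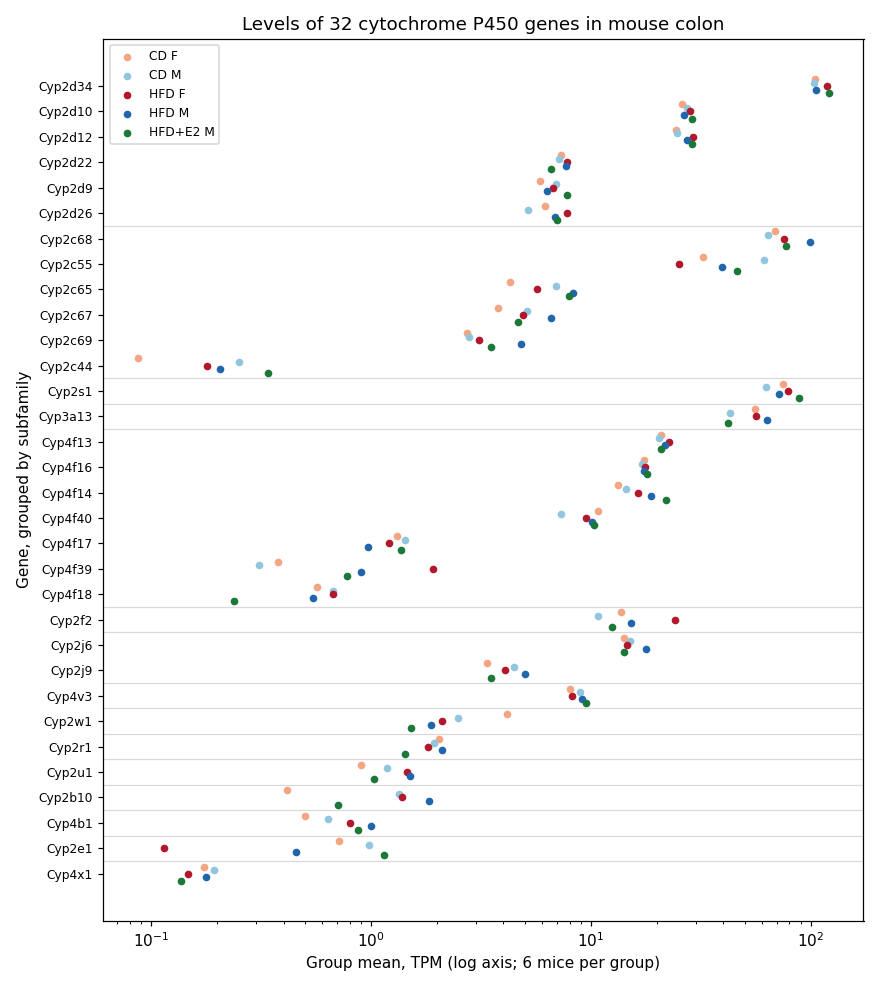
Mean level in TPM (log axis) of each of the 32 genes in the 5 groups, 6 mice per group, with genes ordered by subfamily and grey lines between subfamilies. The levels span from Cyp4x1, at a mean of 0.166 TPM, to Cyp2d34, at 110.7 TPM, and for most genes the 5 group means lie close together.

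The minimum count sits in a sparse part of the range. Just above it were Cyp2c44 (mean 7.47 counts), Cyp4x1 (8.80 counts) and Cyp4f18 (12.6 counts), and just below it Cyp2a12 (4.73 counts), Cyp2d11 (3.50 counts) and Cyp2b19 (3.43 counts). Of the 43 named genes under the minimum 19 had no count in any library. No gene of subfamilies 1a, 1b, 2a, 2g, 2t or 4a reached it: Cyp1a1, the classical AHR target, averaged 0.90 counts and Cyp1b1 2.90 counts per library. Cyp3a11, the main hepatic enzyme of subfamily 3a, had 3 counts in 1 library, and Cyp3a13 was the only one of 7 genes of its subfamily to be retained. Likewise 1 of 5 genes of subfamily 2b, 2 of 8 of subfamily 2j and 6 of 15 of subfamily 2c were retained, against 6 of 8 of subfamily 2d and 7 of 9 of subfamily 4f.

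Subfamily 2d, whose enzymes oxidise many basic drugs, contributed 30.01% to 34.4% of the P450 transcript in every group. Its summed level was 174.2 ± 23.4 TPM in CD F, 174.9 ± 37.9 in CD M, 198.8 ± 41.7 in HFD F, 180.1 ± 26.02 in HFD M and 200.1 ± 67.5 in HFD+E2 M. Cyp2d34 ranged from 81.8 to 115.8 TPM in CD F (median 107.9), from 80.0 to 128.9 in CD M (median 99.4), from 79.5 to 151.4 in HFD F (median 128.1), from 82.3 to 127.0 in HFD M (median 105.9) and from 90.7 to 191.0 in HFD+E2 M (median 111.6). All 5 groups overlapped, and the highest value belonged to 1 E2-treated male. Cyp2d10 ranged from 18.2 to 50.5 TPM and Cyp2d12 from 15.1 to 52.2 TPM over all mice, each highest in the same animal, HFD+E2 M replicate 1. None of the 6 genes passed either threshold used below in any comparison.

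Subfamily 2c, epoxygenases and hydroxylases of arachidonic acid and of drugs, contributed 19.8% to 26.5%. Its summed level was 112.1 ± 34.4 TPM in CD F, 140.2 ± 27.7 in CD M, 114.5 ± 25.1 in HFD F, 158.7 ± 28.5 in HFD M and 139.7 ± 24.96 in HFD+E2 M. Cyp2c68 carried the largest part, and Cyp2c55, which oxidises arachidonic acid to hydroxy acids, was the most variable of the abundant genes. Its coefficient of variation within groups was 48.8%, against 21.99% for Cyp2d34, 20.01% for Cyp2c68 and 13.0% for Cyp4f13. Cyp2c55 ranged from 11.6 to 64.4 TPM in CD F (median 21.1), from 37.0 to 102.0 in CD M (median 60.8), from 7.45 to 43.9 in HFD F (median 26.6), from 22.8 to 65.0 in HFD M (median 31.5) and from 29.6 to 74.1 in HFD+E2 M (median 41.3).

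The 4f enzymes end-hydroxylate fatty acids and leukotrienes. Their summed level lay between 61.6 ± 5.37 TPM in CD M and 73.4 ± 20.7 TPM in HFD+E2 M. Cyp4f13 was the steadiest of the 10 most abundant genes, at 20.9 ± 2.72 TPM in CD F, 20.4 ± 1.93 in CD M, 22.8 ± 1.68 in HFD F, 21.7 ± 3.03 in HFD M and 20.8 ± 3.91 in HFD+E2 M, with single mice from 16.8 to 27.1 TPM. Cyp4f16 was similarly even between groups in TPM (17.1 to 17.96 TPM on average), with single mice from 9.80 to 29.3 TPM. By the counts Cyp4f16 was higher in CD F than in CD M, with a log2 fold change of 0.36 ± 0.12, short of the fold limit used below. Cyp4f14 had its lowest mean in CD F (13.3 ± 2.53 TPM) and its highest in HFD+E2 M (21.9 ± 9.31 TPM), with single mice from 9.19 to 37.9 TPM. Both genes were highest in HFD+E2 M replicate 1.

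Cyp2s1, an AHR-inducible enzyme found mainly outside the liver, was read at 55.3 to 104.1 TPM in CD F (median 72.0), 34.8 to 80.4 in CD M (median 62.5), 48.1 to 112.3 in HFD F (median 75.9), 44.0 to 103.4 in HFD M (median 70.5) and 66.6 to 109.3 in HFD+E2 M (median 91.5). Its groups overlapped throughout. Apart from Cyp3a13, described below, the most abundant genes of the remaining subfamilies were Cyp2f2 (15.2 TPM), which activates naphthalene in lung club cells, Cyp2j6 (15.2 TPM), of a subfamily of arachidonic acid epoxygenases, and Cyp4v3 (8.75 TPM), a fatty acid hydroxylase. Cyp2w1 averaged 2.43 TPM and Cyp2r1, a vitamin D hydroxylase, 1.87 TPM. Cyp2u1, Cyp2b10, Cyp4b1, Cyp2e1 and Cyp4x1 averaged between 0.166 and 1.22 TPM, so that their group values rest on few reads.

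Close copies share sequence, which limits how well their reads can be told apart. Each transcript was cut into all windows of 51 bases, the length of a read, and the windows also found in transcripts of another gene were counted. Cyp2c69 shared 53.8% of its windows, Cyp2c67 52.1% and Cyp2c68 42.5%, each most often with Cyp2c40, which is itself below the minimum, with 1.33 counts. The coding sequences of Cyp2c67 and Cyp2c69 were 97.7% identical, those of Cyp2c67 and Cyp2c68 97.2% and those of Cyp2c68 and Cyp2c69 96.5%. In subfamily 2d the largest identity was 92.5%, between Cyp2d9 and Cyp2d10, and Cyp2d10 shared 35.1% of its windows. In all, 7 of the 32 genes shared over 10% of their windows and 8 shared none, among them Cyp2s1, Cyp3a13, Cyp2f2 and Cyp4f39. Cyp4f40 shared 1.48%.

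The 2 measures of level differed for some genes. For Cyp2c67 the TPM value was 2.56 times as high, relative to its length-scaled count, as for the median of 9287 genes with a mean of at least 100 counts, above the 95th percentile of these genes (2.34). The ratio was 1.75 for Cyp2c69 and 0.907 for Cyp2c68, both within the 5th to 95th percentile range (0.629 to 2.34). Below this range were Cyp3a13 (0.606), Cyp2e1 (0.597), Cyp2w1 (0.485), Cyp4x1 (0.441), Cyp4f18 (0.436) and Cyp2c44 (0.341). Of these, Cyp3a13, Cyp2w1 and Cyp2c44 shared no windows with another gene. Apart from Cyp3a13 and Cyp2c68, the genes set against this range averaged under 100 counts, so it was not drawn from genes of their level. Because of their shared windows, the levels and the fold changes of Cyp2c67, Cyp2c68 and Cyp2c69 are uncertain as to which copy they belong to. Cyp4f18 overlaps Zfp961 on the opposite strand over 4927 bases, and the overlapping gene had 206.9 counts on average against its own 12.6, so Cyp4f18 is uncertain as well.

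**Figure D2:**
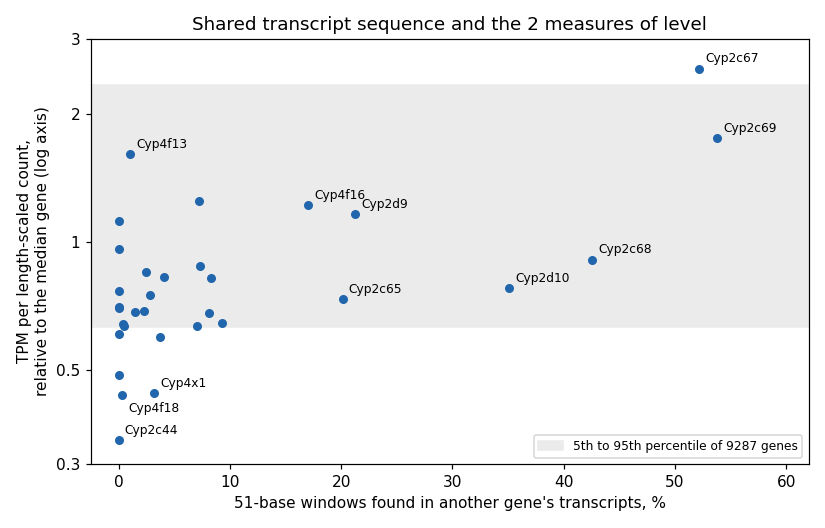
Share of each gene's 51-base transcript windows that also occur in another gene (horizontal axis, in percent) against its TPM per length-scaled count relative to the median gene (vertical log axis), 1 point per P450 gene, with the 5th to 95th percentile of 9287 genes in grey. Cyp2c67 and Cyp2c69 lie at the right, with 52.1% and 53.8% of windows shared, and above a ratio of 1. The 9287 genes averaged at least 100 counts each, more than many of the P450 genes shown.

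The first comparison asked whether the sexes differed on CD. Cyp4f40, a fatty acid hydroxylase of the 4f array on chromosome 17 (ENSMUSG00000090700, 32659410 to 32676687), was higher in females. It was read at 7.90 to 12.7 TPM in CD F (median 11.04) and at 5.77 to 8.65 TPM in CD M (median 7.39). The TPM ranges overlapped slightly, whereas after normalisation of the counts to library size every female lay above every male. The log2 fold change of females over males was 0.67 ± 0.11 (SE), with an edgeR quasi-likelihood p of 0.00291 after Benjamini-Hochberg adjustment over all genes. Cyp4f40 rose in females by this test in each of the 12 fits that left out 1 mouse, with log2 fold changes from 0.61 to 0.70.

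Cyp4f40 was the 1 gene of the 28 tested to pass the adjusted threshold (adjusted p under 0.05), where 2.92% of all 14922 genes did. Marker levels moved with this comparison. With the score of smooth muscle markers in the model the log2 fold change was 0.68 (edgeR adjusted p = 0.0384), with that of surface colonocytes 0.69 (edgeR adjusted p = 0.0190), and with that of B cells, whose 10 markers summed to 14.7 to 69.1 TPM in CD F and 0.888 to 55.4 TPM in CD M, 0.62 (edgeR adjusted p = 0.0692). With the smooth muscle score Cyp2s1 passed as well, at 1.16 ± 0.22 (edgeR adjusted p = 0.0233) against 0.35 ± 0.22 without it (edgeR adjusted p = 0.505). DESeq2 called Cyp2f2 in addition (log2 fold change 0.45, DESeq2 adjusted p = 0.0338).

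A second threshold, more permissive in p but with a fold limit, followed the study, an unadjusted p under 0.05 with a log2 fold change beyond 0.4 in either direction. Past it, in CD F against CD M, were 3 genes higher in females, Cyp4f40, Cyp3a13 and Cyp2f2, where 2.94% of all genes were, and 1 gene lower, Cyp2b10, where 6.21% of all genes were. Cyp3a13, a drug and steroid oxidase, was read at 37.0 to 79.6 TPM in CD F (median 55.0) and 30.9 to 51.01 in CD M (median 45). The ranges overlapped, and the log2 fold change was 0.41 ± 0.13 (edgeR adjusted p = 0.108). Cyp2f2 differed by 0.45 ± 0.13 (edgeR adjusted p = 0.0775), with 13.7 ± 3.09 TPM in CD F and 10.7 ± 1.88 TPM in CD M. Cyp2b10, the classical CAR target, differed by -0.99 ± 0.31 (edgeR adjusted p = 0.108), from 5 to 13 counts in CD F and 8 to 28 in CD M. Leaving out CD F replicate 2, 3 or 6 or CD M replicate 1, 2 or 4 took Cyp3a13 back below the threshold (lowest log2 fold change 0.33), and leaving out CD F replicate 1 or 3 or CD M replicate 4 or 6 did so for Cyp2f2 (lowest 0.38).

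On HFD the sexes differed at the study's threshold in 2 of 29 genes tested, both lower in females and both in the 2c array, Cyp2c67 and Cyp2c69. Among all 15179 genes 1.08% were lower and 2.01% higher. Cyp2c69 was read at 2.40 to 3.66 TPM in HFD F (median 3.15) and 4.05 to 6.49 in HFD M (median 4.61), with no overlap, and its log2 fold change was -0.81 ± 0.24 (edgeR adjusted p = 0.746). Cyp2c67 was read at 1.41 to 8.52 TPM in HFD F (median 4.92) and 5.24 to 8.57 in HFD M (median 6.30), and its log2 fold change was -0.52 ± 0.24 (edgeR adjusted p = 0.872). Cyp2c69 had 11 to 32 and Cyp2c67 11 to 39 counts per library in these mice. No gene of the 32 passed the adjusted threshold, by edgeR or by DESeq2, against 0.0988% of all genes, and 3 of the 29 had an unadjusted p under 0.05, against 5.09% of all genes. Without the 6 libraries rich in squamous markers the log2 fold change was -0.37 for Cyp2c69 and -0.55 for Cyp2c67, both short of the study's threshold. Cyp2c67 was also lost on leaving out any of HFD F replicates 1 to 5 or HFD M replicate 1, 3 or 4 (log2 fold changes from -0.61 to -0.33 over the 12 fits).

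On HFD the level of Cyp4f40 was 9.54 ± 0.707 TPM in HFD F and 10.2 ± 1.45 TPM in HFD M, a log2 fold change of -0.03 ± 0.11. The change of the sex difference with diet was tested as an interaction over the 24 vehicle-treated mice. It was -0.71 ± 0.14 on the log2 scale for Cyp4f40, past the study's threshold but not the adjusted one in edgeR (adjusted p = 0.319), while DESeq2 gave an adjusted p of 0.00409. Without the squamous-rich libraries it was -0.72. Cyp2c69 (-1.14 ± 0.37), Cyp2c68 (-0.54 ± 0.20) and Cyp3a13 (-0.49 ± 0.21) also passed the study's threshold for the interaction, with edgeR adjusted p of 0.603, 0.631 and 0.694. These 3 values fell short of it without the squamous-rich libraries (-0.70, -0.38 and -0.35). All 4 were negative, so that the HFD response was lower in females than in males, where 1.47% of 15800 genes were past the threshold in this direction, 3.71% in the other and 0.0% after adjustment. Of the 31 genes tested 4 had an unadjusted p under 0.05 in edgeR, against 6.75% of all genes. The 10 smooth muscle markers had a median of 0.51 for this interaction, and 3 of them were higher at the study's threshold.

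**Figure D3:**
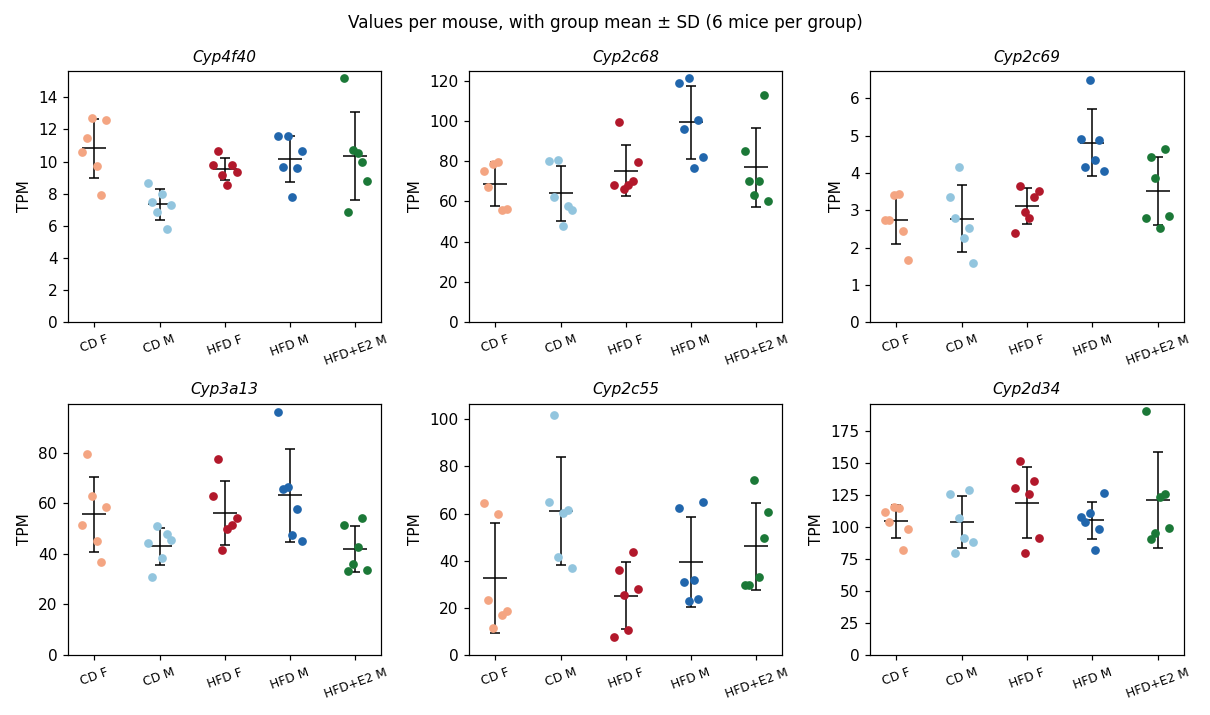
TPM of 6 P450 genes in each mouse by group, with the group mean and SD in black, 6 mice per group. Cyp4f40 is lowest in CD M (7.34 TPM on average), Cyp2c68 and Cyp2c69 are highest in HFD M (99.3 and 4.81 TPM), and the groups of Cyp2d34 overlap.

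HFD was next compared with CD in males. Here 6 of the 28 genes tested were higher on HFD at the study's threshold, where 1.25% of all 14991 genes were, and 1 was lower, where 1.64% were. The higher genes were Cyp2c69, Cyp2c68, Cyp4f40, Cyp3a13, Cyp2f2 and Cyp2b10, and the lower one Cyp2c55. The median log2 fold change of the 28 genes was 0.16, against -0.01 for all genes tested. None passed the adjusted threshold in edgeR, as for 0.0% of all genes, with 8 of the 28 at an unadjusted p under 0.05, against 6.03% of all genes. DESeq2 called Cyp2c69 (log2 fold change 1.17, DESeq2 adjusted p = 0.0356). The 10 smooth muscle markers had a median log2 fold change of -0.28 in this comparison, and 1 of them was lower at the study's threshold.

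Within the 2c array Cyp2c68 and Cyp2c69 were higher and Cyp2c55 was lower. Cyp2c68, the second most abundant P450 gene, was read at 47.8 to 80.8 TPM in CD M (median 59.9) and at 76.9 to 121.3 TPM in HFD M (median 98.3). The ranges overlapped slightly, and the log2 fold change was 0.56 ± 0.13 (edgeR adjusted p = 0.390), with 0.49 to 0.64 on leaving out 1 mouse and 0.64 without the squamous-rich libraries. Cyp2c69 was read at 1.58 to 4.17 TPM in CD M (median 2.65) and 4.05 to 6.49 TPM in HFD M (median 4.61). Its log2 fold change was 1.16 ± 0.25 (edgeR adjusted p = 0.307), with 1.04 to 1.27 on leaving out 1 mouse and 1.17 without the squamous-rich libraries. The same HFD M mice entered the comparison of the sexes on HFD and the interaction. The calls of Cyp2c69 in these are therefore not independent. Cyp2c67 had a log2 fold change of the counts of -0.05 ± 0.30, while its TPM was 5.12 ± 1.58 in CD M and 6.59 ± 1.17 in HFD M. Cyp2c55 was lower, with 61.2 ± 23.1 TPM in CD M and 39.5 ± 19.2 TPM in HFD M, a log2 fold change of -0.68 ± 0.30 (edgeR adjusted p = 0.823). The value for Cyp2c55 fell short of the threshold without CD M replicate 1, 2 or 5 or HFD M replicate 2, 3, 4 or 5 (smallest difference -0.46), and was -0.56 without the squamous-rich libraries.

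Cyp4f40 differed between HFD M and CD M by 0.46 ± 0.12 (edgeR adjusted p = 0.574), with 7.81 to 11.6 TPM in HFD M (median 10.2). Its value was 0.40 without CD M replicate 5, just short of the threshold, and 0.54 without the squamous-rich libraries. This comparison and that of the sexes on CD share the 6 CD M mice, in which Cyp4f40 was lowest. The calls in both of Cyp4f40, Cyp3a13, Cyp2f2 and Cyp2b10 are therefore not independent. Cyp3a13 was read at 45.3 to 96.3 TPM in HFD M (median 61.8), a log2 fold change of 0.45 ± 0.16 (edgeR adjusted p = 0.739). It was 0.51 without the squamous-rich libraries and fell short of the threshold without CD M replicate 2 or HFD M replicate 1 (lowest 0.34). Cyp2f2 differed by 0.47 ± 0.15 (15.2 ± 2.68 TPM in HFD M) and by 0.38 without the squamous-rich libraries, short of the threshold. Cyp2b10 differed by 0.66 ± 0.31 on 14 to 46 counts per HFD M library. It was 0.58 without the squamous-rich libraries, short of the threshold, and it also fell short without any of 7 mice, CD M replicates 1, 2, 5 and 6 and HFD M replicates 1, 2 and 5 (lowest 0.47).

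**Figure D4:**
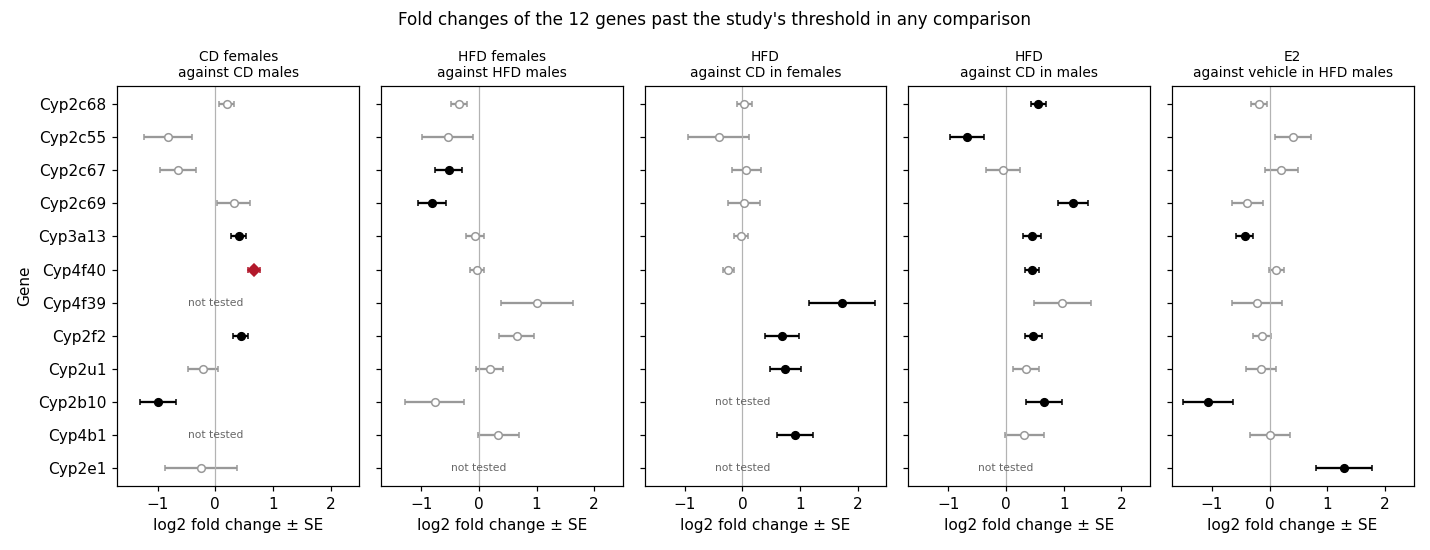
Log2 fold change with SE in the 5 comparisons (panels) of the 12 genes that passed the study's threshold in at least 1 of them, with filled black points past the study's threshold, the red diamond also past the adjusted threshold, and open grey points past neither. Only Cyp4f40 in CD females against CD males (0.67) passed the adjusted threshold in these fits; genes with too few counts are marked as not tested.

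In females 4 of the 28 genes tested were higher on HFD than on CD at the study's threshold, where 2.95% of all 15061 genes were, and none was lower, where 0.724% were. They were Cyp4f39, Cyp4b1, Cyp2u1 and Cyp2f2, of which Cyp2f2 also stood past this threshold in males, though only with the squamous-rich libraries kept. None passed the adjusted threshold by edgeR or DESeq2, against 0.0199% of all genes, and 5 of the 28 had an unadjusted p under 0.05, against 5.68% of all genes. Cyp4f39, which hydroxylates the very long fatty acids of the skin barrier, was read at 0.0 to 0.893 TPM in CD F (median 0.371) and 0.0 to 4.64 TPM in HFD F (median 1.49). Its log2 fold change was 1.73 ± 0.57 (edgeR adjusted p = 0.561). Cyp2f2 was read at 10.5 to 17.6 TPM in CD F (median 12.8) and 12.6 to 49.2 TPM in HFD F (median 15.2), with a log2 fold change of 0.69 ± 0.29 (edgeR adjusted p = 0.803). Cyp2f2 fell short of the threshold without CD F replicate 2, 4, 5 or 6 or HFD F replicate 1 or 3 (lowest 0.44), whereas Cyp4f39 kept between 1.46 and 1.96. Both genes were highest in HFD F replicates 1 and 3, at 4.64 and 3.59 TPM for Cyp4f39 and 49.2 and 37.3 TPM for Cyp2f2.

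The same 2 libraries had the highest sums of squamous epithelium markers, 1442 and 1529 TPM. Replicate 4 had a nearly equal sum of 1426 TPM, with 1.999 TPM of Cyp4f39 and 15.04 TPM of Cyp2f2. In the male group HFD M replicate 2, with a marker sum of 563.1 TPM, had 3.06 TPM of Cyp4f39 and 18.7 TPM of Cyp2f2, the highest of its group for both. Without the 6 squamous-rich libraries the log2 fold change was -0.76 for Cyp4f39 and -0.04 for Cyp2f2, and with the marker score in the model it was -0.66 and -0.13. Cyp2u1, a fatty acid hydroxylase, differed by 0.75 ± 0.26 (edgeR adjusted p = 0.596), with 0.901 ± 0.495 TPM in CD F and 1.45 ± 0.438 in HFD F. It was 1.003 without the squamous-rich libraries. Cyp4b1, which oxidises fatty acids and some plant toxins, differed by 0.91 ± 0.31 (edgeR adjusted p = 0.577) on 5 to 33 counts per library, and by 0.88 without the squamous-rich libraries, short of the threshold. With all libraries kept, the exact permutation test (two-sided) gave p = 0.0801 for Cyp4f39, 0.173 for Cyp2f2, 0.0281 for Cyp2u1 and 0.0173 for Cyp4b1.

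**Figure D5:**
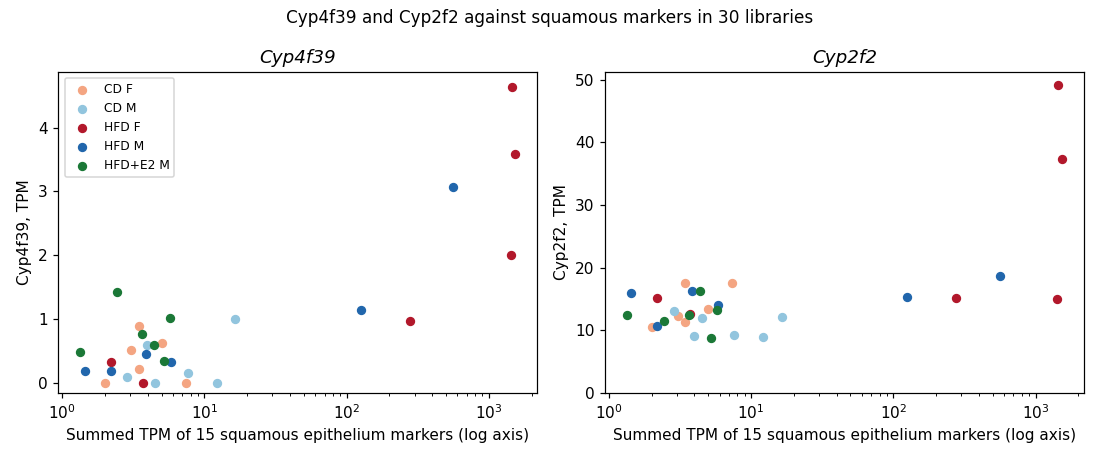
TPM of Cyp4f39 (left) and Cyp2f2 (right) against the summed TPM of 15 squamous epithelium markers (horizontal log axis) in each of the 30 libraries, coloured by group. HFD F replicates 1 and 3, with marker sums of 1442 and 1529 TPM, hold the highest values of both genes.

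Several abundant genes had similar levels in females on the 2 diets. Cyp2c68 was read at 68.7 ± 10.9 TPM in CD F and 75.4 ± 12.8 TPM in HFD F (log2 fold change 0.03 ± 0.13), Cyp3a13 at 55.8 ± 14.9 and 56.3 ± 12.6 TPM (-0.03 ± 0.12), and Cyp2s1 at 75.2 ± 18.4 and 78.8 ± 23.99 TPM (-0.02 ± 0.23). The difference for each of these 3 genes was smaller than its SE. Cyp4f40 was lower on HFD by 0.24 ± 0.10, short of the fold limit.

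E2 was compared with vehicle in HFD males. Past the study's threshold were 1 gene higher, Cyp2e1, where 2.63% of all 15010 genes were, and 2 genes lower, Cyp3a13 and Cyp2b10, where 3.24% were. None of the 30 genes tested passed the adjusted threshold by edgeR or DESeq2, against 0.00666% of all genes, and 4 had an unadjusted p under 0.05, against 10.2% of all genes. Cyp3a13 was read at 33.3 to 54.1 TPM with E2 (median 39.3), a log2 fold change of -0.43 ± 0.15 (edgeR adjusted p = 0.456). The value was -0.51 without the squamous-rich libraries, and it fell short of the threshold without HFD M replicate 1 or 5 or HFD+E2 M replicate 6 (smallest difference -0.32). Cyp2b10 had 0 to 24 counts with E2 and 14 to 46 with vehicle, a log2 fold change of -1.08 ± 0.43 (edgeR adjusted p = 0.461). It was -1.01 without the squamous-rich libraries, short of the threshold, as it was without HFD M replicate 2 or 5 (smallest difference -0.85). The comparison of E2 with vehicle and that of HFD with CD in males share the 6 HFD M mice, so the opposite signs of Cyp3a13 and Cyp2b10 in them are not independent.

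Cyp2e1, which oxidises ethanol and ketone bodies, had 1 to 53 counts per library with E2 (median 27.0) and 5 to 13 with vehicle (median 9.50). Its log2 fold change was 1.29 ± 0.48 (edgeR adjusted p = 0.461), and it was 1.12 to 1.56 on leaving out 1 mouse and 1.32 without the squamous-rich libraries. On counts normalised to library size (log2 CPM) the difference was 0.79 (exact permutation test, two-sided p = 0.238). The same permutation test gave p = 0.0368 for Cyp3a13 and p = 0.0108 for Cyp2b10 with E2. The groups overlapped, and the lowest count of all 12 mice was in an E2-treated male. The abundant genes Cyp2d34 (0.33 ± 0.13), Cyp2s1 (0.47 ± 0.24) and Cyp2c68 (-0.19 ± 0.14) did not reach the threshold with E2. For Cyp2c67 the 2 measures differed in sign, with 4.65 ± 1.94 TPM against 6.59 ± 1.17 TPM with vehicle but a log2 fold change of the counts of 0.20 ± 0.28.

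Over the 5 comparisons 143 tests of a gene in a comparison were made on these genes. Of these, 20 passed the study's threshold, in 12 genes, where 4.93% of all 75163 such tests over all genes did, and 1 passed the adjusted one. The comparisons share mice, and Cyp2c67, Cyp2c68 and Cyp2c69 share sequence, so these tests are not independent. No test of 20 of 143 against 4.93% was made. 25 genes had enough counts for a test in all 5 comparisons and 2, Cyp2c44 and Cyp4x1, in none. Cyp2c44, an epoxygenase, was read at 2 to 8 counts in CD F and 4 to 13 in CD M (exact permutation test, two-sided p = 0.0931). Cyp2e1, too low to be tested between the sexes on HFD, differed there by -0.92 in log2 CPM (exact permutation test, two-sided p = 0.0108, where 0.00216 is the smallest possible). That test included the squamous-rich libraries. Its p was not adjusted, and no other gene too low for a test in a comparison had a permutation p under 0.05 there.

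Genes that work with the P450 enzymes were examined as lists. Those that are named for passing the study's threshold were chosen after their values were seen, and their counts stand against the shares of all genes given above for each comparison. Of 4 electron donors none passed either threshold in the 5 comparisons, and Cyb5r3 passed that of the study for the interaction (0.48; 0.26 without the squamous-rich libraries). Por, the P450 oxidoreductase, was read at 23.7 ± 7.07 TPM in CD F, 33.4 ± 5.42 in CD M, 36.3 ± 9.75 in HFD F, 36.3 ± 10.5 in HFD M and 33.3 ± 7.28 in HFD+E2 M, and Cyb5a, cytochrome b5, at 51.4 to 60.7 TPM on average. Of 13 receptors and partners none passed the adjusted threshold, and Ahrr, the AHR repressor, alone passed that of the study, lower in CD F than in CD M (-1.17 ± 0.37) and in HFD M than in CD M (-0.77 ± 0.36; -0.56 without the squamous-rich libraries, short of the threshold), at 0.202 to 0.421 TPM on average. Nr1i2, which encodes PXR, was read at 29.6 to 33.9 TPM on average, Ahr at 7.41 to 9.99 TPM and Nr1i3, which encodes CAR, at 0.911 to 1.40 TPM. None of the 3 epoxide hydrolases tested, of 4 listed, passed either threshold.

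Of 21 P450 genes of other families 9 had enough counts to be tested and none passed the adjusted threshold. Cyp27a1, a sterol hydroxylase of bile acid synthesis, was read at 25.97 to 31.1 TPM on average and Cyp51, of cholesterol synthesis, at 16.5 to 27.0 TPM. At the study's threshold 3 of the 9 were lower in CD F than in CD M, where 6.21% of all genes were, Ptgis (-0.81), Tbxas1 (-0.49) and Cyp26b1 (-1.06), of which Ptgis, the prostacyclin synthase, is known from smooth muscle. Cyp11a1 was past it in HFD F against HFD M (0.80), Cyp26b1 in HFD F against CD F (1.15) and Cyp7b1 with E2 (-0.58). Without the squamous-rich libraries these 3 values were 0.72, 0.34 and -0.31, short of the threshold. Among 19 genes of conjugation and linked detoxification Ugt2b34, a glucuronosyltransferase, was the 1 gene past the adjusted threshold, in CD F against CD M. It was read at 100.8 ± 21.5 TPM in CD F and 80.3 ± 10.3 in CD M, a log2 fold change of 0.40 ± 0.10 (edgeR adjusted p = 0.0404). This was just short of the fold limit of the study's threshold. In fits that share the CD M mice with this comparison, Ugt2b34 passed the study's threshold. It was higher in HFD M than in CD M (0.41 ± 0.14), and its interaction was -0.60. Without the squamous-rich libraries these values were 0.48, past the threshold, and -0.28, short of it. With E2 3 of the 15 genes tested from this list were lower at the study's threshold, where 3.24% of all genes were, and none was higher, where 2.63% were. They were the glucuronosyltransferases Ugt2b35 (-0.56) and Ugt1a1 (-0.62) and the quinone reductase Nqo1 (-0.48). Without the squamous-rich libraries Ugt2b35 was at -0.60, and Ugt1a1 (-0.19) and Nqo1 (-0.26) fell short. Of 7 efflux transporters Abcb1b passed it in HFD M against CD M (0.52 ± 0.20; 0.34 without the squamous-rich libraries, short of it), although its TPM was 9.45 ± 3.59 in HFD M and 10.8 ± 4.19 in CD M.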

How the data were processed

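Total RNA from frozen colon of 30 mice was sequenced by the study with a stranded, rRNA-depleted kit and paired 51-base reads. Per the labels and the study's methods, reads were converted with bcl2fastq 2.19.1.403, trimmed with Trim Galore and aligned with STAR to GRCm38. The authors made raw gene counts with featureCounts and TPM values, scaled for transcript length and depth, with StringTie and deposited both. Tool versions other than that of bcl2fastq and the strand setting of the counting are not given in the sources used here.

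Genes were tested on the counts with edgeR 4.0.16 (R 4.3.3): filterByExpr on the 12 libraries of a comparison, TMM normalisation and the robust quasi-likelihood F test, with the SE taken as the absolute log2 fold change over the square root of F. The sex by diet interaction used the 24 vehicle libraries. P-values were adjusted by Benjamini-Hochberg over all genes tested. The study's threshold did not say whether its p was adjusted and was read as unadjusted. DESeq2 1.42.0 was an alternative. For genes too low to be tested, log2 CPM (prior count 2) was compared over all 924 splits of 6 against 6 mice. This permutation test is also given for the genes past the study's threshold with E2 and in HFD against CD in females. The fits were tested on simulated data. No column was left unmapped. Repeated rows of a gene in a TPM table (23 in the first table) were summed. Sequence sharing was computed on the transcripts of GENCODE M21 (GRCm38).

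The genes, gene lists and tests were chosen with earlier results of these data known. Named were the genes past either threshold in a comparison or the interaction, the 10 most abundant, the most abundant of each subfamily, the 3 on either side of the count minimum, related genes past the adjusted threshold, and Por, Cyb5a, Ahr, Nr1i2, Nr1i3, Cyp51 and Cyp27a1. Other genes under the minimum, or sharing sequence with a named gene, are named for context. Leaving out the 6 squamous-rich libraries, for P450 and related genes, was chosen after seeing the data. Each mouse is 1 library, and the counts per library limit the precision of genes with few counts. A further 5 names with a letter after the number were not matched by the rule.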

Additional observations from a re-analysis of the deposited data

Results flagged for a closer look

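Single mice stood apart in TPM from the other 5 of their group in 13 of 120 groups of gene values examined. In these the gap to the nearest mouse, over the range, was above Dixon's 95% critical value for 6 samples. For independent, normally distributed values chance passes it in about 1 in 20 groups. TPM was not transformed, and the same mice recur across genes, so 13 of 120 cannot be set against that rate. In HFD+E2 M replicate 1 Cyp2d34 was at 191.0 TPM and Cyp4f16 at 29.31 TPM, both high. In CD F replicate 6 Cyp2w1 was high at 6.496 TPM, Cyp2b10 was high at 1.435 TPM and Cyp2c67 was low at 0.2479 TPM. In HFD M replicate 3 Cyp4v3 was at 11.51 TPM and Cyp2c69 at 6.493 TPM, and in HFD M replicate 6 Cyp2u1 was at 3.001 TPM and Cyp2d10 at 38.31 TPM, all high. Cyp4f39 was high in HFD M replicate 2 (3.064 TPM), a library rich in squamous markers. The others were Cyp2w1 in CD M replicate 5 (6.319 TPM), Cyp2d10 in CD M replicate 1 (45.97 TPM) and Cyp2r1 in HFD F replicate 2 (2.874 TPM). The raw counts did not always set the same mouse apart. Cyp2w1 had 64 counts in CD M replicate 5 and 58 in CD M replicate 3. Cyp2u1 had 54 counts in HFD M replicate 6 and 62 in HFD M replicate 5.

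The HFD response differed between females and males, by the interaction term at the study's threshold, for Cyp4f40 (-0.7056 on the log2 scale, females minus males), Cyp2c69 (-1.143), Cyp2c68 (-0.5394) and Cyp3a13 (-0.4878). None of the 4 passed the adjusted threshold in edgeR. Without the squamous-rich libraries Cyp2c69, Cyp2c68 and Cyp3a13 fell short of the study's threshold. Among all genes 1.47% were past that threshold in this direction.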

How the results depend on the processing

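Cyp4f40 in CD F against CD M kept its direction and adjusted call in each alternative fit to the counts except with the B cell score as a covariate (log2 fold change 0.6157), where 0 genes passed. The number past the adjusted threshold there was otherwise 2 by DESeq2, 2 with the smooth muscle score (Cyp2s1 and Cyp4f40), 4 with a replicate block (Cyp2s1, Cyp4f16, Cyp2f2 and Cyp4f40) and 1 to 2 on leaving out single mice, with 2 without CD M replicate 1. DESeq2 called 1 gene in HFD against CD in males and 1 in the interaction. At the study's threshold, leaving out single mice gave 2 (without CD F replicate 3) to 7 genes (without CD F replicate 4) in CD F against CD M, 1 to 3 in HFD F against HFD M and 4 (without CD M replicate 2) to 9 in HFD against CD in males. HFD F against HFD M gave 1 gene with the replicate block and 4 with the smooth muscle score. Requiring at least 10 counts in every library gave 2 genes in HFD against CD in females and 1 with E2, where fewer genes were tested, and DESeq2 gave 5 with E2. The interaction gave 2 genes with the squamous score. With the smooth muscle score 7 of 24 gene differences, the interaction included, fell short of the study's threshold with no change of sign. Against CD in females, Cyp2f2 turned to -0.1328 with the squamous score and -0.04023 without the squamous-rich libraries, and Cyp4f39 to -0.6568 and -0.7585. Without the squamous-rich libraries 8 of the 20 gene differences that involve HFD, the interaction included, stayed past the study's threshold. Of the others 10 fell short of it and 2 changed sign. On log2(TPM + 1) 10 of 20 gene differences fell short of the threshold with no change of sign. Deviations of mice with the same replicate number correlated between -0.40 and 0.46 (medians per comparison from -0.02 to 0.23, own number best in 1 to 4 of 6 mice). No comparison had all 6 pairs above 0.1, so the numbers were not taken as pairs. Genes with few counts, such as Cyp2b10, Cyp2e1, Cyp4b1, Cyp4f39 and Cyp2c69, allow the least precise values. Except for the fits with fewer samples or genes, the cause of these shifts was not tested.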

Other observations

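Cyp2b19, the P450 arachidonic acid epoxygenase of keratinocytes, lay just under the count minimum and was read in 5 of the 30 libraries. It had 28 counts in HFD F replicate 1, 43 in HFD F replicate 3, 30 in HFD M replicate 2, and 1 each in HFD F replicates 5 and 6. The first 3 of these libraries also held the highest Cyp4f39 levels and were among the 6 with squamous marker sums above 100 TPM.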
